A study of Mus musculus with 11 samples.

Results

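The skeletal muscle sarcomere genes were examined in RNA-seq libraries of the whole main olfactory epithelium (MOE), the nasal tissue that holds the olfactory sensory neurons (OSNs). The members were 10 genes of the 24421 entries in the count table: the myosin heavy chains Myh3, Myh8, Myh1, Myh2, Myh4 and Myh7, the sarcomeric actins Acta1 and Actc1, the myosin light chain Myl1 and the troponin subunit Tnni1. They were chosen by their symbols and selected on measured values too, since earlier results of these data had shown muscle transcripts to be abundant in heterozygous replicates 2 and 4 and in homozygous replicates 2 and 3 (the muscle-rich libraries below). None of those 4 libraries is wild type, so the level of the members and its direction between genotypes are given as a description and support nothing on their own. The 11 libraries came from mice labelled C57BL/6 at postnatal day 1 to 2. In 3 of them the olfactory Taar cluster (Taar2 to Taar9, trace amine-associated receptors) was intact (wild type). In 4 libraries labelled heterozygous it was deleted on 1 chromosome (cluster KO, het in the titles), and in 4 labelled homozygous (homo) on both. The deletion is carried in the germ line and is therefore present in muscle as in neurons. The study's reporting summary gives an older age and a background mixed with 129 for this line, which was not settled here, and sex, litter and dissection date are not given in the labels.

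Sarcomeres are the contractile units of striated muscle, in which thick filaments of myosin pull on thin filaments of actin. Each skeletal muscle fibre uses a set of myosin heavy chain isoforms that changes as the animal matures: the embryonic chain (Myh3) and the perinatal chain (Myh8) precede the adult fast chains (Myh2 for type 2A, Myh1 for type 2X and Myh4 for type 2B fibres), while Myh7 encodes the slow chain, which the heart uses as well. Sarcomeric actin goes through a similar exchange, in which cardiac actin (Actc1) is made by developing skeletal muscle and skeletal actin (Acta1) takes over. Myl1 encodes the essential light chain of fast myosin, and Tnni1 the slow form of the inhibitory troponin subunit, which developing fast fibres also use.

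The 5 developmental and fast heavy chain genes lie side by side on the plus strand of chromosome 11 (mm10), from Myh3 (chr11:67078300-67102291) through Myh2 (chr11:67171027-67197517), Myh1 (chr11:67200052-67224575) and Myh4 (chr11:67238029-67260446) to Myh8 (chr11:67277124-67308634). Myh7 is on chromosome 14 (chr14:54970684-54994626), Acta1 on chromosome 8 (chr8:123891769-123894751), Actc1 on chromosome 2 (chr2:114047282-114053548) and Myl1 on chromosome 1 (chr1:66924295-66945404), all on the minus strand, and Tnni1 is on the plus strand of chromosome 1 (chr1:135779434-135810989). The heavy chains are close relatives, which matters for a count that depends on telling them apart. The coding sequences of Myh3 and Myh8 were 81.1% identical, those of Myh1 and Myh2 91.1%, and that of Myh7 was 77.2% to 77.9% identical to the other 5. Acta1 and Actc1 were 86.3% identical. Of all stretches of 51 bases in the longest coding transcript, 95.4% were found in no other annotated gene for Myh3, 79.01% for Myh8, 73.8% for Myh1, 73.6% for Myh2, 81.5% for Myh4 and 78.2% for Myh7, whose shared stretches were all with the cardiac heavy chain Myh6. The figure was 97.9% for Acta1, 100% for Actc1 and Tnni1, and 76.8% for Myl1, which shares stretches with its pseudogene Mylf-ps. How reads with several positions were treated is not given in the sources used here, so counts of Myh1 and Myh2, with the lowest figures, are the least certain, followed by those of Myl1, Myh7, Myh8 and Myh4.

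The longest stretch in common between the coding sequences of Myh3 and Myh8, the pair on which the isoform comparison rests, was 77 bases, in exon 30 of each gene (chr11:67096373-67096449 in Myh3 and chr11:67300027-67300103 in Myh8, plus strand, mm10). A short read that falls inside it cannot be given to either gene.
Myh3 and Myh8, shared: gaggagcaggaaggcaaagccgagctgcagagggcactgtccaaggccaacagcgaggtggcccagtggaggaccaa

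All 10 members had a promoter window in the RefSeq table (GRCm38.p6), of 300 bases that run from 250 bases before the transcript start to 50 after it. The windows of the 2 developmental heavy chains and of the 2 actins are shown because the make-up of the muscle transcripts is read from these 4 genes. Capitals mark matches to the CArG box, the letters bound by serum response factor, and to the MEF2 box. Myh3 lies at chr11:67078050-67078349 and Myh8 at chr11:67276874-67277173 (plus strand), Acta1 at chr8:123894726-123895025 and Actc1 at chr2:114052826-114053125 (minus strand).
Myh3: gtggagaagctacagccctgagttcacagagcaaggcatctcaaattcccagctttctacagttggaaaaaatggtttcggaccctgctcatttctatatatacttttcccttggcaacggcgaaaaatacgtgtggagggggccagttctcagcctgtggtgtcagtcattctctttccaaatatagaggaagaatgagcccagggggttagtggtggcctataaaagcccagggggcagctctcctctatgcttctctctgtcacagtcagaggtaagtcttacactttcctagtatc
Myh8: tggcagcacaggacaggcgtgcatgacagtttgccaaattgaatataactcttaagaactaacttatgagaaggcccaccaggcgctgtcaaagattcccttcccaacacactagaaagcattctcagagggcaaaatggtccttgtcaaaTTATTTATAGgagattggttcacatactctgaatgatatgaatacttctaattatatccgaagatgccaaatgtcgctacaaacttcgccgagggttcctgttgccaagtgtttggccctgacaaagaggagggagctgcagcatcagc
Acta1: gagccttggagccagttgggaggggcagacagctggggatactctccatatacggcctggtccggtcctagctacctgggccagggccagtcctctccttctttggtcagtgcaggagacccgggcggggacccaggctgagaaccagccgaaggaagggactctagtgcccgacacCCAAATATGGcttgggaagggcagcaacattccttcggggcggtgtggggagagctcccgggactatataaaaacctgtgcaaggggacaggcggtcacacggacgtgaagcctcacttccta
Actc1: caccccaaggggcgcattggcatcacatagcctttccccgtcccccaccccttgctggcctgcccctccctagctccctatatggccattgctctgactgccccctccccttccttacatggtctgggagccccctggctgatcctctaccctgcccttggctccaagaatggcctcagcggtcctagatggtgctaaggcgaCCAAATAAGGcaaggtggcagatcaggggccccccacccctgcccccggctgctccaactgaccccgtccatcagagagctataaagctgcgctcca

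Both actin windows held a CArG box, starting 73 bases before the start of Acta1 and 47 before that of Actc1, and Myh4 held one 104 bases before its start. The motif occurred in 3 of 10 members and in 1.63% of all 32851 windows. A MEF2 box was present in Myh8 (99 bases before the start), Myh1 (211) and Myh4 (182), that is in 3 of 10 members and in 3.19% of all windows. The E-box CANNTG, which myogenic factors bind, occurred in 8 of 10 members and in 72.3% of all windows, and CAGCTG, a form of it that is counted among the E-boxes too, in 4 of 10 and 16.3%. All 4 patterns match both strands alike. Longer runs tied the fast heavy chains to each other. Myh8 and Myh1 had in common a run of 22 bases that covers the MEF2 box (chr11:67277020-67277041 and chr11:67199886-67199907), found in 2 of 32851 windows on the strand of the gene. A run of 14 bases was present in Myh8, Myh1, Myh2 and Myh4 and in no other window (54, 160, 125 and 158 bases before the start), and within Myh1, Myh2 and Myh4 it extended to 20 bases. Only the run of 14 bases is common to the perinatal and all adult fast genes, and the Myh3 window lacks each of these runs. Runs were looked for within Myh8, Myh1, Myh2 and Myh4 only, so Myh3 was not part of the search. The runs are descriptions of letters and not of binding.
Myh8 and Myh1: tcaaattatttataggagattg
Myh1, Myh2 and Myh4: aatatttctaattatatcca
Myh8, Myh1, Myh2 and Myh4: ttctaattatatcc

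The libraries held 9239866 to 14632525 counts and 19093 to 19828 detected genes. CPM below stands for counts scaled so that every library has the same TMM-adjusted total, and 3 counts, the floor that a count of 0 allows, were worth 0.204 to 0.327 CPM. Confidence intervals and floors cover counting error only. Homozygous replicate 2 stood apart, with 25.8% of its counts in the ribosomal RNA gene Rn45s against 0.0848% to 0.786% in the other libraries, and the leading component of all tested genes (41.6% of the variance) split the libraries into a set of 6 and a set of 5 that cut across genotype. The label of the tissue was met by its markers: all 10 mature OSN genes of the fixed list were detected, with a summed level of 1491 to 2623 CPM in wild type, 1609 to 2250 CPM in heterozygous and 1487 to 1853 CPM in homozygous libraries.

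The members formed a small but very uneven part of the libraries. Listed by replicate number, the wild type libraries had 41, 527 and 136 member counts, the heterozygous libraries 180, 5578, 141 and 12015, and the homozygous libraries 1242, 3089, 8197 and 168. All values below that are given per library follow this order. In CPM the sum was 3.80, 42.3 and 10.98 in wild type, 12.2, 438, 13.4 and 1286 in heterozygous, and 104, 337, 601 and 14.5 in homozygous libraries, a 338-fold span. Libraries of the same genotype stood far apart. Heterozygous replicates 1 and 3 and homozygous replicate 4 lay within the range of the wild type libraries, and the other 5 deletion libraries lay above it. In whole tissue, more muscle cells in the sample and more RNA per muscle cell cannot be told apart.

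The developmental heavy chains carried most of the myosin signal. Myh3, the embryonic chain, was at 0.278, 3.21 and 0.807 CPM in wild type. It was at 1.56, 50.5, 1.90 and 90.3 CPM in heterozygous and at 23.7, 46.7, 40.5 and 1.12 CPM in homozygous libraries. The genotypes overlapped, because heterozygous replicates 1 and 3 and homozygous replicate 4 were below wild type replicate 2. Myh8, the perinatal chain, was at 0.371, 18.1 and 1.78 CPM in wild type. It was at 1.09, 136, 1.90 and 530 CPM in heterozygous and at 20.2, 84.5, 169 and 2.93 CPM in homozygous libraries. It had the widest span of the members detected in every library, 1431-fold from wild type replicate 1 to heterozygous replicate 4.

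The adult fast chains were at the edge of detection outside the muscle-rich libraries. Myh2 (type 2A) had 0, 3 and 1 counts in wild type, 1, 38, 0 and 78 in heterozygous, and 8, 23, 29 and 1 in homozygous libraries, and its highest level was 8.35 CPM. Myh1 (type 2X) had 0 counts in all 3 wild type libraries, 0, 10, 0 and 167 in heterozygous and 0, 9, 32 and 0 in homozygous libraries. At these depths a level of up to 0.278 CPM in wild type replicate 1, 0.241 CPM in replicate 2 and 0.242 CPM in replicate 3 is allowed. Myh4 (type 2B), the scarcest member, had 0, 1 and 0 counts in wild type, 0, 5, 0 and 23 in heterozygous and 1, 4, 9 and 0 in homozygous libraries. Myh1 and Myh4 did not pass the filter on low counts and were not tested. Myh1 was at 17.9 CPM in heterozygous replicate 4 and at 0.784 CPM in replicate 2 of the same genotype, while Myh2 was at 8.35 and 2.98 CPM in these libraries, so Myh1 exceeded Myh2 in the former and not in the latter.

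Myh7, the slow chain, was the steadiest member, with a 10.1-fold span. It was at 1.67, 2.49 and 0.969 CPM in wild type, at 1.43, 5.81, 2.27 and 9.74 CPM in heterozygous and at 3.45, 4.14, 6.02 and 1.55 CPM in homozygous libraries. Since 21.8% of its stretches occur in Myh6, its counts cannot be told fully from those of the cardiac chain. Myh6 itself had 13 to 39 counts per library, with no gap between muscle-rich and other libraries. Myh7 made up 72% of the 6 heavy chain counts in wild type replicate 1 (18 of 25 counts, 95% Wilson interval 52.4% to 85.7%) and 1.48% in heterozygous replicate 4 (91 of 6157, interval 1.21% to 1.81%).

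**Figure D1:**
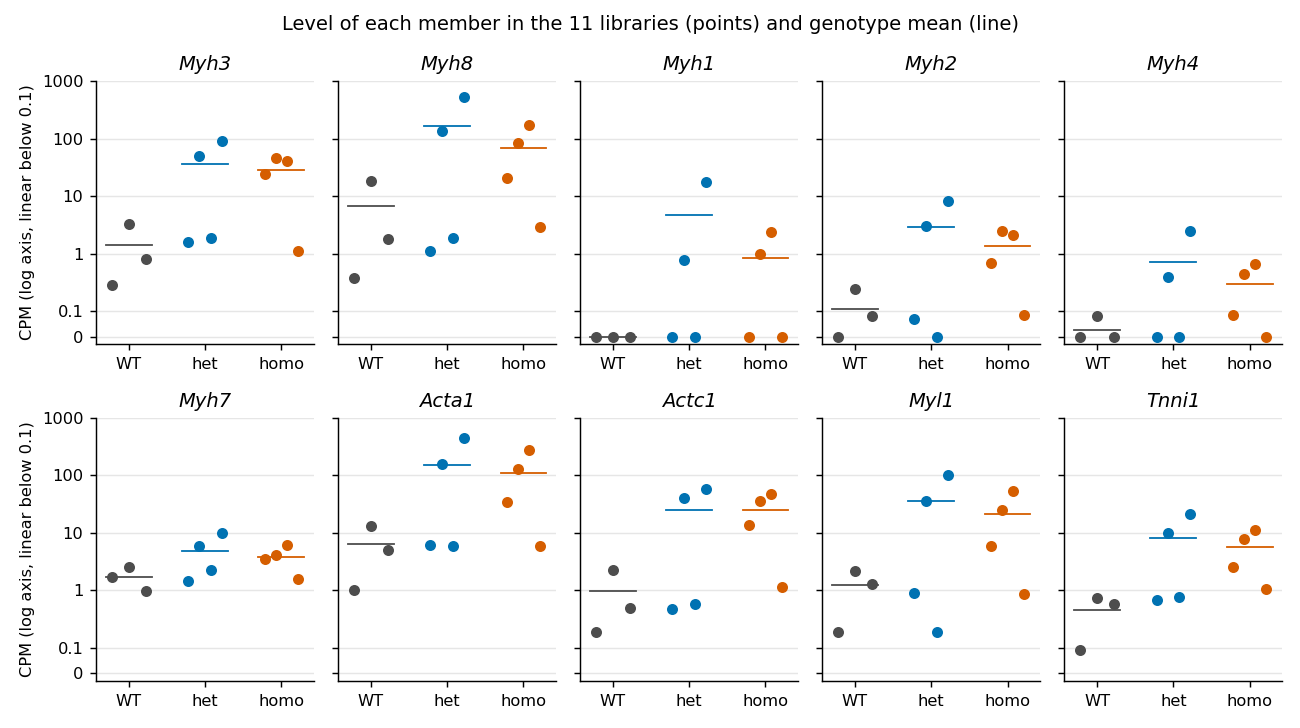
Level of each of the 10 members in CPM (log axis, linear below 0.1 so that 0 can be drawn) by genotype, with 1 point per library (3 WT, 4 het, 4 homo, in replicate order from left to right) and a line at the genotype mean. In every panel het replicates 2 and 4 and homo replicates 2 and 3 stand above the WT mean, while het replicates 1 and 3 and homo replicate 4 lie among the WT points or near them.

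Among the thin filament members, Acta1, skeletal actin, was at 1.02, 13.0 and 5.01 CPM in wild type, at 6.05, 155, 5.78 and 446 CPM in heterozygous and at 34.2, 129, 270 and 5.77 CPM in homozygous libraries. Per kilobase of transcript it was the most abundant member, with a mean of 67.3 CPM per kilobase over all 11 libraries against 19.1 for Myl1, 14.3 for Myh8, 12.3 for Actc1, 4.44 for Tnni1 and 3.93 for Myh3. The mean of Myh8 is raised by heterozygous replicate 4 (86.2 CPM per kilobase), and Actc1 exceeded Myh8 per kilobase in 9 of 11 libraries, the exceptions being that library and wild type replicate 2. Actc1, cardiac actin, was at 0.185, 2.24 and 0.484 CPM in wild type, at 0.476, 39.5, 0.569 and 56.8 CPM in heterozygous and at 13.7, 36.3, 47.5 and 1.12 CPM in homozygous libraries.

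Tnni1, slow troponin I, was at 0.0927, 0.722 and 0.565 CPM in wild type, at 0.680, 9.81, 0.758 and 21.1 CPM in heterozygous and at 2.52, 7.85, 11.1 and 1.03 CPM in homozygous libraries. It was the only tested member whose wild type and homozygous libraries did not overlap, although homozygous replicate 4 and wild type replicate 2 differed by 12 against 9 counts. Myl1, the fast essential light chain, was at 0.185, 2.16 and 1.29 CPM in wild type, at 0.884, 36.1, 0.190 and 103 CPM in heterozygous and at 5.97, 24.9, 52.5 and 0.861 CPM in homozygous libraries.

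Genotype was compared to see whether loss of the receptor cluster came with a difference in these transcripts. In the heterozygous against the wild type libraries the 8 tested members had higher fitted levels, with log2 fold changes from 1.47 (SE 0.66) for Myh7 to 4.80 (SE 1.86) for Myl1 and a median of 4.59, beside a median of 0.0018 over all genes tested. The values were 4.61 (SE 1.59) for Myh3, 4.61 (SE 2.03) for Myh8, 4.58 (SE 1.70) for Acta1 and 4.60 (SE 1.73) for Actc1. None of the 8 passed edgeR's quasi-likelihood test with Benjamini-Hochberg adjustment over 16574 genes (0 called, 0.0% of all genes, lowest adjusted p among the members 1). DESeq2, run as an alternative, called 0 members in this and in each other comparison. At an unadjusted p under 0.05 all 8 were higher, compared with 1.75% of all genes tested, and 0 of 8 had groups that did not overlap, compared with 1.41% of all genes. Leaving out heterozygous replicate 4, wild type replicate 1 or wild type replicate 3 reduced the 8 members under an unadjusted 0.05 to 2 in each case, and the median was 3.12 without heterozygous replicate 4 and 5.71 without wild type replicate 2. A member passes the count filter through the libraries where it is high, and the muscle-rich libraries were part of the choice of members, so nothing is read from these counts.

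In the homozygous against the wild type libraries the fitted log2 fold changes ran from 1.15 (SE 0.65) for Myh7 to 4.62 (SE 1.73) for Actc1, with a median of 3.82 beside 0.015 over all genes tested. Myh3 had 4.25 (SE 1.58), Myh8 3.34 (SE 1.92), Myh2 3.47 (SE 1.80), Acta1 4.10 (SE 1.67), Myl1 4.08 (SE 1.82) and Tnni1 3.55 (SE 1.33). Again 0 of 8 passed the edgeR test (0.0% of all genes, lowest adjusted p 0.996). Myh3, Acta1, Actc1, Myl1 and Tnni1 had an unadjusted p under 0.05 (5 of 8, compared with 1.81% of all genes higher at that level), and 1 of 8 had groups that did not overlap, compared with 2.51% of all genes. The 5 members under an unadjusted 0.05 became 0 without wild type replicate 1 or wild type replicate 3 and 2 without homozygous replicate 3. The median log2 fold change was 5.16 without wild type replicate 2, 3.09 without homozygous replicate 3 and 3.62 without homozygous replicate 2, the library rich in Rn45s, and 0 members passed in each case. Same-numbered wild type and homozygous libraries had correlated deviations, but libraries with different numbers correlated as closely where they fell in the same of the 2 library sets, so number and set cannot be told apart there. With the replicate number as a block and all 3 genotypes fitted 0 members passed, and with only these 2 genotypes and no block 0 passed either. With the block and only these 2 genotypes together, 5 of 7 tested members passed (Myh3, Actc1 and Myl1 with an edgeR adjusted p of 0.0050, Tnni1 0.0069 and Acta1 0.0083), against 37 of 16163 genes called higher (0.229%). In this fit homozygous replicate 4, which has no wild type partner and was low in all members, adds nothing to the difference. The fit was added after the data had been seen. Of its 37 genes called higher, 5 were members and 19 were other genes of the fixed skeletal muscle lists, among them Mylpf, Ttn, Tnnt3, Tnnc2, Des, Actn2, Atp2a1 and Ckm, and Ibsp and Fabp4 of the bone and adipocyte lists also passed.

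Between the homozygous and heterozygous libraries no member passed the test. The median log2 fold change was -0.49, from -1.27 (SE 1.53) for Myh8 to 0.025 (SE 1.22) for Actc1, 0 of 8 passed the edgeR test (0.0% of all genes, lowest adjusted p 1), none had an unadjusted p under 0.05 in either direction (0.32% of all genes were higher at that level), and 0 of 8 had groups apart (0.296% of all genes). Without heterozygous replicate 4 the median was 0.56 and all 8 members were higher, so 1 library set the sign, and without homozygous replicate 3 it was -1.25. Both comparisons with wild type rest on the same 3 wild type libraries, and the order of the genotype means, heterozygous above homozygous above wild type, held for 9 of 10 members, the exception being Actc1, with 24.4 ± 28.4 CPM (SD, n = 4) for heterozygous against 24.7 ± 21.1 CPM (SD, n = 4) for homozygous libraries. The SD exceeded the mean in the heterozygous group for every member but Myh7, which had 4.81 ± 3.79 CPM (SD, n = 4).

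Within the set of 6 libraries all 8 tested members were higher in homozygous and in heterozygous than in wild type libraries, with median log2 ratios of mean CPM of 3.45 and 4.55, and within the set of 5 the medians were 4.40 and 3.86. Only 1 wild type library fell in the set of 5, so wild type has no spread there. For homozygous against heterozygous libraries the median was -1.199 in the set of 6, with 0 of 8 members higher, and 0.24 in the set of 5, with 6 of 8 higher.

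**Figure D2:**
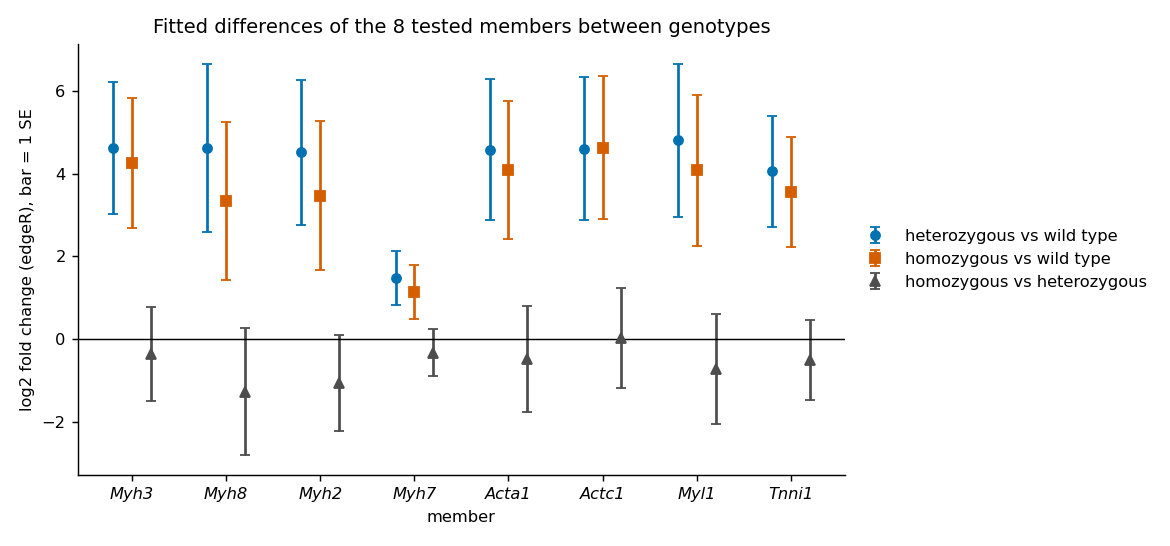
Fitted log2 fold change (edgeR, bars 1 SE) of the 8 tested members in the 3 comparisons of genotypes. Values against WT sit between 1.15 and 4.80, with the slow chain Myh7 lowest in both, and those of homo against het straddle 0, and 0 of the differences passed the adjusted test in this fit.

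The make-up of the heavy chains was compared between libraries because a share within the myosin counts does not depend on how a library is scaled. In the 5 libraries with over 500 heavy chain counts the developmental chains made up most of the total. Myh8 alone accounted for 69.3% (95% Wilson interval 67.4% to 71.1%) and 80.5% (79.5% to 81.4%) of the 6 chains in heterozygous replicates 2 and 4, and for 42.0% (38.0% to 46.0%), 60.7% (58.0% to 63.3%) and 76.6% (75.03% to 78.1%) in homozygous replicates 1, 2 and 3. Myh3 made up 25.7% and 13.7% in those heterozygous and 49.3%, 33.5% and 18.4% in those homozygous libraries. The adult fast chains Myh1, Myh2 and Myh4 together gave 2.11% (1.62% to 2.75%) and 4.35% (3.87% to 4.89%) in heterozygous replicates 2 and 4 and 1.57% (0.830% to 2.96%), 2.82% (2.04% to 3.88%) and 2.33% (1.85% to 2.93%) in homozygous replicates 1, 2 and 3. All 5 libraries were thus dominated by the 2 developmental isoforms.

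**Figure D3:**
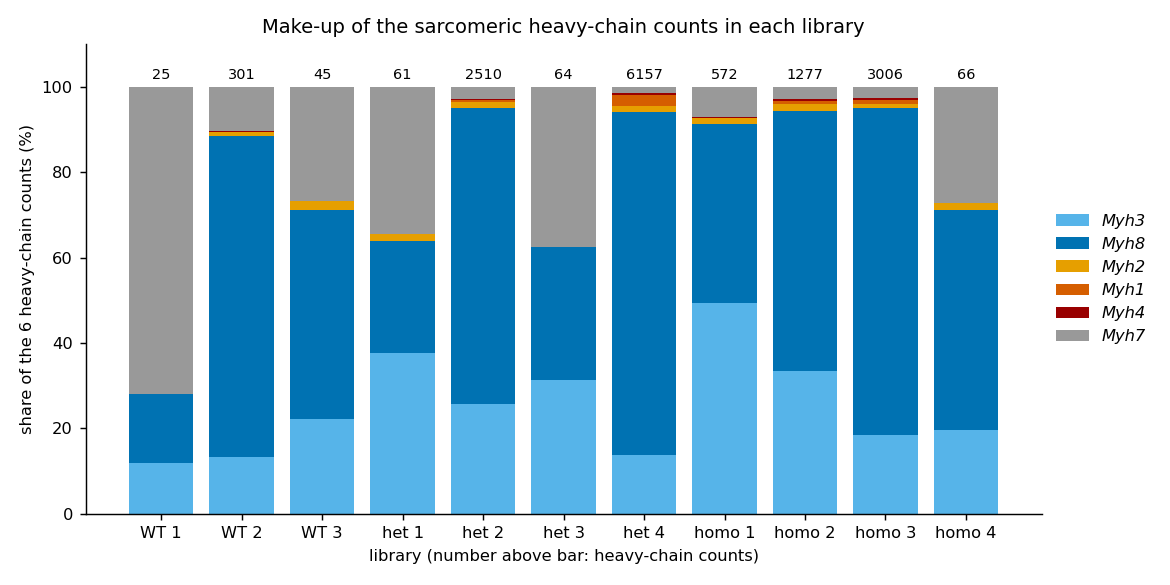
Share of the 6 sarcomeric heavy chain counts (%) taken by each gene in each of the 11 libraries, with the number of counts above the bar. Myh3 and Myh8 (blue) fill most of the bar in every library with over 100 counts, the adult fast chains (orange and red) take 4.35% at most, and Myh7 (grey) is large only where fewer than 100 counts were found.

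Libraries of the same genotype differed in the balance between the embryonic and the perinatal chain. The Myh3 share of Myh3 plus Myh8 counts was 42.9%, 15.04% and 31.3% in wild type, from 7, 266 and 32 counts. It was 59.0%, 27.0%, 50% and 14.6% in heterozygous libraries, from 39, 2383, 40 and 5798 counts, and 54.02%, 35.6%, 19.3% and 27.7% in homozygous libraries, from 522, 1203, 2854 and 47 counts. Among the 4 muscle-rich libraries the Wilson intervals did not overlap: 25.3% to 28.8% in heterozygous replicate 2, 13.7% to 15.5% in heterozygous replicate 4, 32.9% to 38.3% in homozygous replicate 2 and 17.9% to 20.8% in homozygous replicate 3. Expressed as a ratio of counts, Myh8 exceeded Myh3 2.70 and 5.87 times in those heterozygous libraries and 1.81 and 4.17 times in those homozygous libraries, and per kilobase of transcript the ratios were 2.65, 5.76, 1.78 and 4.09. Homozygous replicate 1 had more Myh3 than Myh8 counts (282 against 240, ratio 0.851). The spread within each genotype was wider than the difference between the genotype means.

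The actin pair showed the same order of libraries. The Actc1 share of Actc1 plus Acta1 counts was 28.6% (25.1% to 32.5%) in homozygous replicate 1, 22.0% (20.01% to 24.2%) in homozygous replicate 2, 20.3% (18.8% to 21.9%) in heterozygous replicate 2, 15.0% (14.0% to 16.1%) in homozygous replicate 3 and 11.3% (10.4% to 12.2%) in heterozygous replicate 4. The Myh3 share placed these 5 libraries in the same order, from 54.02% to 14.6%. The summed level of the members rose in this order, at 104, 337, 438, 601 and 1286 CPM. Both shares thus fell as the member level rose, and the reason was not tested. The intervals of homozygous replicate 2 and heterozygous replicate 2 overlapped for the actins, so this pair of neighbours was not separated at this depth. In the other 6 libraries the Actc1 share was 7.29% to 16.3%, from 13 to 190 counts. There the 2 shares did not follow each other: heterozygous replicate 1 had the highest Myh3 share of all (59.0%, interval 43.4% to 72.9%) and the lowest Actc1 share (7.29%, interval 3.58% to 14.3%). As a ratio, Acta1 exceeded Actc1 2.49 times in homozygous replicate 1 and 7.85 times in heterozygous replicate 4.

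**Figure D4:**
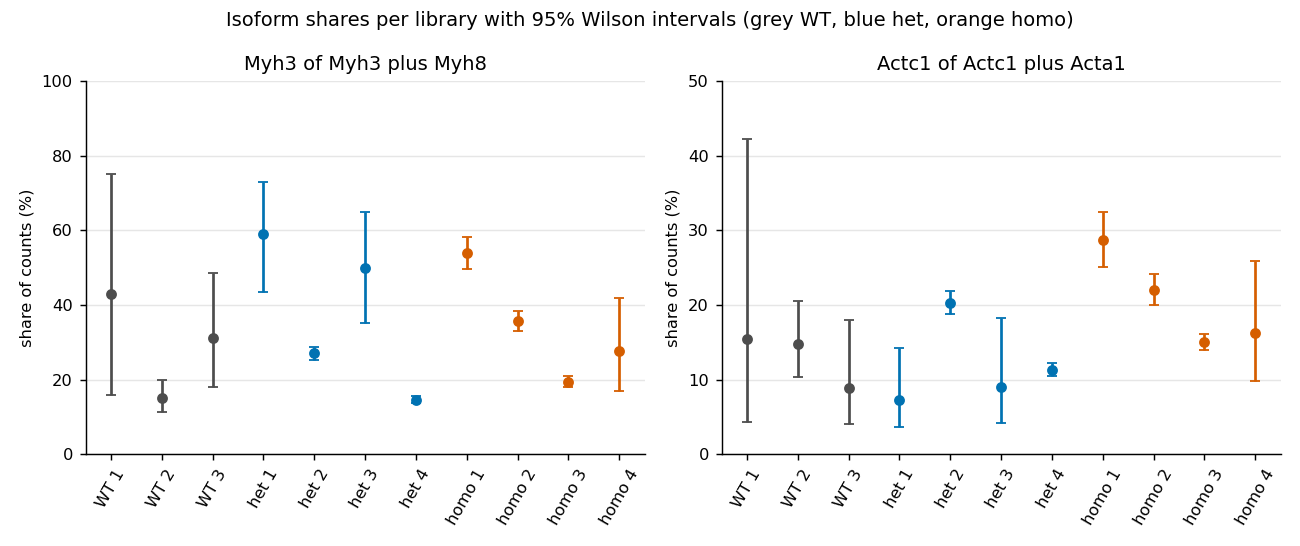
Myh3 share of Myh3 plus Myh8 counts (left) and Actc1 share of Actc1 plus Acta1 counts (right) in each library, in percent, with 95% Wilson intervals that cover counting error only. In both panels homo replicate 1 lies above homo replicate 2, het replicate 2, homo replicate 3 and het replicate 4, in that order, while libraries with few muscle counts have wide intervals.

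By genotype the shares did not separate. For the Myh3 share the wild type mean was 29.7% ± 14.0 (SD, n = 3), the heterozygous mean 37.6% ± 20.4 (SD, n = 4) and the homozygous mean 34.2% ± 14.8 (SD, n = 4). The adult fast share of the 6 heavy chains was 1.18% ± 1.12 (SD, n = 3), 2.03% ± 1.80 (SD, n = 4) and 2.06% ± 0.628 (SD, n = 4). The Actc1 share was 13.0% ± 3.62 (SD, n = 3), 12.0% ± 5.80 (SD, n = 4) and 20.5% ± 6.25 (SD, n = 4). In 9 two-sided exact permutation tests, of 3 shares in 3 comparisons, the lowest p was 0.114 (0.514 after Benjamini-Hochberg adjustment), for the Actc1 share of homozygous against heterozygous and against wild type libraries, and all other adjusted values were 0.686 or more. No p below 0.0571 is possible with 3 against 4 libraries, nor below 0.0286 with 4 against 4. Within the set of 6 libraries the mean Myh3 share was 28.9% in wild type, 32.3% in heterozygous and 44.8% in homozygous libraries, and within the set of 5 it was 31.3%, 43.0% and 23.5%, so the order of the genotypes changed with the set. The mean Actc1 share was 15.1%, 10.1% and 25.3% in the set of 6 and 8.82%, 13.8% and 15.6% in the set of 5, with the homozygous libraries highest in both.

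Within the adult fast chains the muscle-rich libraries also differed. Myh1 supplied 18.9% (10 of 53 counts, interval 10.6% to 31.4%) in heterozygous replicate 2 and 62.3% (167 of 268, interval 56.4% to 67.9%) in heterozygous replicate 4, and 25% (9 of 36, interval 13.8% to 41.1%) and 45.7% (32 of 70, interval 34.6% to 57.3%) in homozygous replicates 2 and 3. Myh2 was the larger part in heterozygous replicate 2 (71.7%) and homozygous replicate 2 (63.9%). In homozygous replicate 1 there were 8 counts of Myh2, 1 of Myh4 and 0 of Myh1. Among the 4 muscle-rich libraries, those with the lowest embryonic share, heterozygous replicate 4 and homozygous replicate 3, had the highest Myh1 share and the highest summed member level (1286 and 601 CPM). Outside them wild type replicate 2, with an embryonic share of 15.04%, had 0 Myh1 counts among 4 counts of the adult fast chains. Myh1 and Myh2 share many stretches of sequence, so this split rests on the reads that could be told apart.

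The members varied together with many other sarcomere genes from library to library, though not with all of them. Across the 11 libraries Pearson's r of each tested member with the mean log2 CPM of the other tested members was 0.933 for Myh7 and 0.978 to 0.992 for the other 7, with Acta1 highest. The 10 genes outside the members most like them were Tmem8c (an older symbol of the myoblast fusion gene Mymk, r = 0.994), Des (desmin, the intermediate filament of muscle, 0.993), Atp1b4 (0.991), Ckm (muscle creatine kinase, 0.988), Sln (sarcolipin, which restrains the calcium pump, 0.988), Tnnt3 (fast troponin T, 0.987), Ttn (titin, 0.987), Myoz2 (a Z-disc protein, 0.987), Smyd1 (a methyltransferase of striated muscle, 0.986) and Mylpf (the fast regulatory light chain, 0.985). Des, for example, had 14, 67 and 30 counts in wild type, 45, 507, 31 and 997 in heterozygous, and 128, 219, 655 and 41 in homozygous libraries. Of 16566 tested genes outside the members 72 had r of at least 0.9, while the median r was 0.0065. By symbol, 36 of the 72 were in the fixed muscle lists, which leaves out Tmem8c, since the list of regulators holds it as Mymk. These correlations are over 11 libraries that share their depth and tissue, are dominated by the 5 libraries with the most member counts and are descriptions only.

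The other sarcomere and muscle lists followed the members to different degrees. The lowest r with the members was -0.175 in the thick filament list and -0.148 in the thin filament list. Mybpc2 of the thick filament, picked out after its values were seen, did not follow them. It had 50, 58 and 80 counts in wild type, 215, 141, 120 and 37 in heterozygous and 164, 87, 79 and 154 in homozygous libraries. None of the genes of these lists passed the adjusted test of the fit over 3 genotypes in any comparison, by edgeR or by DESeq2. Of 14 tested thick filament genes 14 had higher fitted levels in homozygous than in wild type libraries, 6 of them at an unadjusted p under 0.05, with a median log2 fold change of 2.17. For heterozygous against wild type 10 of 14 were higher at that level, with a median of 2.81. Counts at an unadjusted 0.05 and medians of the other lists are given in the same order, homozygous and then heterozygous against wild type, and every gene counted at that level was higher. Of all genes tested, 1.81% and 1.75% were higher at that level in these comparisons. The lists were chosen with earlier results of these data known, so nothing is read from these counts. The most abundant genes of the thick filament were Mylpf (3.53, SE 1.52), Mybpc1 (1.95, SE 0.87), Ttn (2.83, SE 1.25) and Myom1 (0.77, SE 0.43). Of 14 thin filament genes 2 and 6 had an unadjusted p under 0.05 and the medians were 1.10 and 1.24. Here the most abundant, the tropomyosins Tpm1 (0.17, SE 0.15), Tpm2 (0.35, SE 0.36) and Tpm3 (0.14, SE 0.13), which other cells use as well, differed little, and the troponin C of fast fibres, Tnnc2, had 3.54 (SE 1.70). The list's summed level spanned 926 to 1886 CPM, against 33.6 to 578 CPM for the thick filament. Of 11 Z-disc genes 4 and 7 had an unadjusted p under 0.05, with medians of 2.82 and 3.58. For homozygous against wild type the values were 2.82 (SE 1.27) for Des, 2.85 (SE 1.29) for Actn2 (sarcomeric alpha-actinin), 0.65 (SE 0.38) for Ldb3 and 0.18 (SE 0.20) for Cap2.

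Of 13 tested genes of calcium handling, which couple excitation to contraction, 1 had an unadjusted p under 0.05 for homozygous against wild type libraries (median 1.64) and 10 for heterozygous against wild type libraries (median 2.18). Its most abundant genes were the fast calcium pump Atp2a1 (2.37, SE 1.25), Jph1 (0.02, SE 0.19), and the calsequestrins Casq1 (0.94, SE 0.65) and Casq2 (2.47, SE 1.29). Of 10 genes of muscle metabolism 1 and 5 had an unadjusted p under 0.05 and the medians were 0.95 and 1.198, with Ckm at 3.68 (SE 1.68), Pygm (muscle glycogen phosphorylase) at 1.05 (SE 0.75), Pgam2 at 1.65 (SE 0.78) and Eno3 at 0.39 (SE 0.20). Of 6 neuromuscular junction genes 1 and 3 had an unadjusted p under 0.05 and the medians were 0.72 and 0.58. Of 7 tested myogenic regulators 0 and 1 reached that level and the medians were 0.11 and 0.33. Tmem8c, which the list holds as Mymk, is not among the 7. Among the abundant ones, Mef2c, Pax3 and Pax7 had values of -0.09, 0.0037 and 0.11 for homozygous against wild type, and none of these 3 had r over 0.73 with the members. Myog (myogenin), the driver of myoblast differentiation, which was picked out after its values were seen, had 0, 9 and 2 counts in wild type, 0, 77, 0 and 86 in heterozygous and 17, 29, 81 and 1 in homozygous libraries.

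Markers of other contractile cells followed the members less closely. Median r with the members was 0.967 for the Z-disc, 0.931 for the thick filament, 0.912 for calcium handling, 0.828 for the thin filament, 0.791 for metabolism, 0.728 for the regulators and 0.621 for the neuromuscular junction. It was 0.411 for 5 tested cardiac genes, -0.22 for 8 smooth muscle genes and -0.015 for 7 non-muscle myosin genes. Smooth muscle markers were abundant in every library, with a summed level of 794 to 980 CPM in wild type, 637 to 1050 CPM in heterozygous and 898 to 1053 CPM in homozygous libraries, and Acta2 had a log2 fold change of 0.11 (SE 0.20) for homozygous against wild type. Of the 9 cardiac genes all were detected, with a sum of 12.2 to 26.6 CPM in wild type, 11.8 to 30.8 CPM in heterozygous and 14.5 to 30.1 CPM in homozygous libraries. The tested genes of the list differed among themselves. Troponin T2 (Tnnt2), which developing skeletal muscle also uses, followed the members (r = 0.940), with 13, 14 and 21 counts in wild type, 16, 69, 10 and 85 in heterozygous and 25, 43, 80 and 19 in homozygous libraries. Myl2, the regulatory light chain of heart and slow skeletal fibres, which is in the thick filament list too and was picked out after its values were seen, had 1, 1 and 4 counts in wild type, 6, 32, 1 and 25 in heterozygous and 13, 29, 45 and 5 in homozygous libraries, and passed the block fit of 2 genotypes. The values of r were -0.15 for Tnni3, 0.411 for Ryr2 and 0.195 for Myh6. The 4 cardiac genes that were not tested, Nppa, Nppb, Myl7 and Mybpc3, had 0 to 11 counts per library, and Nppb was at 0 in 8 libraries. Non-muscle myosins, such as Myh9, summed to 1394 to 2128 CPM over all libraries.

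Mature OSN markers ran opposite to the members, with a median r of -0.47 (10 of 10 genes below 0) and 10 of 10 fitted lower in both deletion genotypes than in wild type, with 0 passing the edgeR test and medians of -0.29 for homozygous and -0.16 for heterozygous libraries. The level of Omp, the olfactory marker protein gene, was 349 to 737 CPM in wild type, 414 to 552 CPM in heterozygous and 346 to 524 CPM in homozygous libraries, with overlap. Immature OSN, sustentacular, and cartilage and bone lists had median r of -0.25, -0.14 and 0.18. Of the cartilage and bone genes (11 of 11 detected, summed level 4855 to 12424 CPM in wild type, 6321 to 12932 CPM in heterozygous and 7954 to 9805 CPM in homozygous libraries) Ibsp, a bone matrix gene, had the highest r (0.771). Of 6 adipocyte genes 5 were detected and 1, Fabp4, was tested, with r = 0.869 and 2.58 to 4.25 CPM in wild type, 4.35 to 16.7 CPM in heterozygous and 3.18 to 12.3 CPM in homozygous libraries. Lep was at 0 in all libraries and the other 4 had at most 4 counts in any library. Of 7 erythrocyte genes 3 were detected, the 4 globin genes being listed at 0 throughout. The part of these cell types in the level of the members was not tested.

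**Figure D5:**
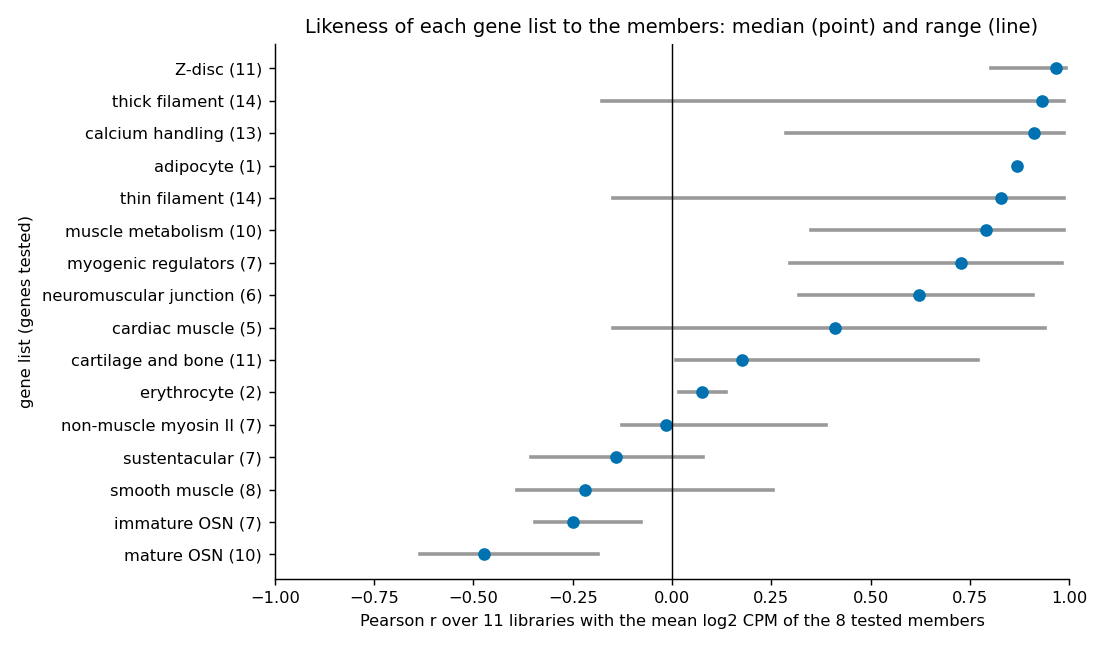
Pearson's r over the 11 libraries between each gene list and the mean log2 CPM of the 8 tested members, with the median (point) and the range (line) of the list and the number of tested genes in brackets. The skeletal muscle lists lie at the right (medians of 0.621 to 0.967), among them Fabp4, the 1 tested adipocyte gene (0.869), the smooth muscle and non-muscle myosin lists near or below 0, and mature OSN genes furthest to the left (-0.47).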

How the data were processed

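RNA-seq was analysed for 11 MOE libraries (3 wild type, 4 heterozygous, 4 homozygous). Per the labels, total RNA was purified by RNeasy with DNase and libraries were made with a directional polyA kit. The authors trimmed reads (Trimmomatic 0.36), aligned them to mm10 (Hisat2 2.1.0) and deposited read counts per gene (featureCounts, Subread 1.6.2), and their notes name DESeq2 1.20.0. The annotation, strand setting and treatment of reads with several positions are not given in the sources used here. The deposited normalised table was not used, and 0 columns belonged to no sample. The depth was 9239866 to 14632525 counts, and intervals are 95% Wilson.

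The members, lists and tests were chosen with earlier results of these data known. Differential expression across all genes was tested with edgeR 4.0.16 in R 4.3.3 (TMM, filterByExpr, quasi-likelihood F-test, 3 genotypes, Benjamini-Hochberg over 16574 genes, threshold 0.05), checked on simulated data. Alternatives were RLE scaling, DESeq2 1.42.0, no filter, a replicate block, the library set (sign of the leading component) as covariate, 2 genotypes only, each library left out, and shares per kilobase or with at least 20 counts. Shares were compared by two-sided exact permutation tests (SciPy 1.17.1). Named genes were the members, up to 4 most abundant genes of each fixed list and the 10 genes with the highest r, and any other was picked after its values were seen. Of the genes this rule names, 1 is not reported here. P-values measure the spread between libraries, which the labels do not tie to separate animals.

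The replicate numbers come from the sample titles. Deviations from the genotype means correlated between same-numbered wild type and homozygous libraries at 0.326, 0.415 and 0.396, all positive, but nothing in the labels names a shared litter or day. The main fit used no pairing, and the numbers entered only as a block in alternative fits. All 3 pairs lie within 1 library set, and wild type and homozygous libraries of the same set but different numbers correlated at 0.244, 0.364 and 0.467, so the correlation does not single out the numbers. Same-numbered wild type and heterozygous libraries gave -0.188, -0.379 and -0.228.

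Coordinates and transcripts were from GENCODE M21 (mm10), promoters from RefSeq (GRCm38.p6), and identities from Biopython 1.88. Protein sequences were not used here.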

Additional observations from a re-analysis of the deposited data

Results flagged for a closer look

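The level of 2 adult fast heavy chains stood out in 1 library. Myh1 was at 17.9 CPM in heterozygous replicate 4, while the other 3 heterozygous libraries were at 0 to 0.784 CPM, and its gap to the nearest library made up 0.956 of the whole range of the group. Myh4 was at 2.46 CPM in the same library against 0 to 0.392 CPM in the other 3, a gap of 0.841 of the range. Both exceed Dixon's limit for groups of 4, but the members were chosen because muscle transcripts were known to be abundant in this library among others, so the limit is no independent test here. Of 26 groups examined 2 stood out, and chance gives about 1 in 20. Heterozygous replicate 4 also had the most member counts (12015) and the lowest Myh3 share (14.6%), while the other 8 members in it, each the highest of its gene, did not exceed the limit. The 2 genes share sequence, so their counts are not independent of each other.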

How the results depend on the processing

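In 53 of 54 combinations of comparison and alternative the number of members called was 0, as in the fit over 3 genotypes, and with each library left out it was 0 to 0 in all 3 comparisons. The exception was the replicate block with only 2 genotypes fitted for homozygous against wild type, with 5 members called of 7 tested and 39 genes of 16163 in all. The block alone called 0 members and 0 genes and changed no call. Over all genes DESeq2 called 8 in homozygous and 3 in heterozygous against wild type libraries and 2 between the deletion genotypes, edgeR 0 in each, and the block with 2 genotypes 8 in heterozygous against wild type. Direction changed in 1 comparison of levels, homozygous against heterozygous. There the log2 fold change turned positive with the replicate block for Myh3 (1.25), Myh8 (1.76), Myh2 (0.20), Acta1 (1.06), Myl1 (0.75) and Tnni1 (0.32), and with the block and 2 genotypes (1.203, 1.26, 0.27, 0.92, 0.77 and 0.37, in this order), and the cause was not tested. With each library left out in turn it ran from -0.77 to 0.59 for Myh3, -2.23 to 0.52 for Myh8, -1.50 to 0.34 for Myh2, -0.65 to 0.23 for Myh7, -1.45 to 0.93 for Acta1, -0.52 to 0.82 for Actc1, -1.74 to 0.72 for Myl1 and -1.09 to 0.54 for Tnni1. Differences in shares also changed sign. With each library left out, the Actc1 share of heterozygous minus wild type ran from -3.80 to 0.535 percentage points, and was 0.18 over libraries with at least 20 counts. The Myh3 share ran from -2.90 to 11.01 for homozygous minus wild type and from -11.2 to 3.62 for homozygous minus heterozygous, and the adult fast share of the latter from -0.642 to 0.809. Same-numbered heterozygous and homozygous libraries correlated at -0.396 to -0.585, so the numbers give no ground for pairs there. Depth limits the adult fast chains and the shares of the 6 libraries with few muscle counts.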

Other observations

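Other isoform pairs of muscle were measured in the same libraries. The acetylcholine receptor of the neuromuscular junction exchanges its fetal gamma subunit (Chrng) for the adult epsilon subunit (Chrne) as the junction matures. Chrng supplied 78% of the counts of both genes in heterozygous replicate 2 (39 of 50, 95% Wilson interval 64.8% to 87.2%), 82.6% in heterozygous replicate 4 (38 of 46, interval 69.3% to 90.9%) and 77.2% in homozygous replicate 3 (44 of 57, interval 64.8% to 86.2%). In the libraries with few muscle counts Chrng was scarce, with 0 of 3, 3 of 8 and 4 of 12 counts in wild type, 3 of 10 and 0 of 4 in heterozygous replicates 1 and 3, and 7 of 20 in homozygous replicate 4. Homozygous replicates 1 and 2 had 6 of 11 and 7 of 10. Chrne had 3 to 13 counts in every library.

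Slow troponin I (Tnni1) made up 24.3% of Tnni1 plus Tnni2 counts in heterozygous replicate 2 (interval 20.8% to 28.2%), 19.1% in heterozygous replicate 4 (16.8% to 21.6%), 33.0% in homozygous replicate 1 (24.2% to 43.1%), 29.1% in homozygous replicate 2 (23.8% to 35.1%) and 20.6% in homozygous replicate 3 (17.8% to 23.6%). The order of these 5 libraries was that of the Myh3 and Actc1 shares, with intervals that overlapped between neighbours, and the summed member level rose in that order. The Chrng share did not follow it. That share was lowest in homozygous replicate 1 (54.5%, interval 28.0% to 78.7%) and highest in heterozygous replicate 4 (82.6%), with intervals that overlapped. In the other libraries the Tnni1 share was 11.1% to 50%, from 9 to 57 counts. No test was run on these shares.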
